A study of Mus musculus with 8 samples.

Results

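The genes described here were 8 transcription factors that pattern the early limb or mark one side of it: the paired box genes *Pax1* and *Pax9*, the aristaless-like genes *Alx1* and *Alx4*, the bHLH gene *Hand2*, and the spalt-like genes *Sall1*, *Sall3* and *Sall4*. They were chosen by symbol, with earlier results of these data known, and make up 8 of the 28001 features in the count tables. Single-cell RNA-seq (10x Genomics, 3′ ends) was performed on mouse forelimbs in 8 libraries. There was 1 library each of sorted tdTomato+ cells at embryonic day (E) 11.5, E12.5, E13.5 and E14.5, and 1 each of the proximal and distal E16.5 forelimb. Another 2 libraries, whole 1 and whole 2, held lineage-negative cells of entire E11.5 limbs. All embryos were C57BL/6J, carried Hic1CreERT2/CreERT2 and Rosa26LSLtdTomato/tdTomato, and were exposed to 7.5 mg tamoxifen, given to the dams by gavage at E10. Both alleles were therefore shared by sorted and whole limb groups. Cre is driven here from the *Hic1* locus, so tdTomato marks cells that expressed *Hic1* in the labelling window and their descendants, not all limb cells. Forelimbs of several embryos were pooled, and cells with blood or endothelial surface markers were gated out. The E16.5 proximal sample spanned the elbow (distal stylopod and proximal zeugopod), and the distal sample the distal zeugopod and autopod. Whole limb samples kept lineage-negative cells with and without tdTomato.

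The limb bud is polarised from anterior (thumb side) to posterior. Posterior cells secrete Sonic hedgehog (SHH), whose expression requires HAND2, whereas GLI3 repressor and ALX4 hold the anterior side free of it. PAX1 and PAX9 are best known from the sclerotome, the part of the somite that forms vertebrae, and both are also transcribed in restricted domains of the proximal and anterior limb. SALL proteins are zinc finger factors of limb outgrowth, and loss of *Sall4* or *Sall1* function affects anterior digits.

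The 250 bases before the RefSeq start (GRCm38.p6) are shown for *Hand2* and for *Pax1* and *Pax9*, because *Hand2* was found together with each of the other two in fewer E11.5 limb cells than independent detection gives. All 3 windows lie on the plus strand and overlap no GENCODE exon of their own gene. Exons of other genes were not checked. Capitals mark CANNTG, the E-box read by bHLH proteins, a pattern found at the same places on both strands.
Hand2 chr8:57320733-57320982: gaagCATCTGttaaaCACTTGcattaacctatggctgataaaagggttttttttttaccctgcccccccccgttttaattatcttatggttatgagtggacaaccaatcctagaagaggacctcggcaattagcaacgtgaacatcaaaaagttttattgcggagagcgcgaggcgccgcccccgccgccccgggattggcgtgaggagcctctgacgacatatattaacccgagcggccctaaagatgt
Pax1 chr2:147364744-147364993: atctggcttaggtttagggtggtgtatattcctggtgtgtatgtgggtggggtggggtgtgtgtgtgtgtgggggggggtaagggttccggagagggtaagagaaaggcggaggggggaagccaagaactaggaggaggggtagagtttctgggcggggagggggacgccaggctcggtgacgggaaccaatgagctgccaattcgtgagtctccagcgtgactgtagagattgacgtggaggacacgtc
Pax9 chr12:56695221-56695470: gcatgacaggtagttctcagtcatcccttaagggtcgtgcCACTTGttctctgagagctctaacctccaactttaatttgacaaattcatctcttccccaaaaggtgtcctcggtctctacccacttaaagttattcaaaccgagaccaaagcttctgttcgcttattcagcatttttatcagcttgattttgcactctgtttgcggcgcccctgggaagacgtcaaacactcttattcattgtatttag
*Hand2* held 2 E-boxes, at 246 and 235 bases before the start, *Pax9* held 1 at 210 bases, and *Pax1* held 0. Of all 32851 RefSeq windows of this length, 66.2% held at least 1. GACCACCCA, the core letters of GLI binding, was searched on both strands; it was in none of the 3 windows and in 0.225% of all of them. The RefSeq starts of *Pax1* and *Pax9* lie 3069 and 3704 bases inside the first GENCODE start, so other start sites of these genes were not covered. Of the other members, *Sall1* has 3 RefSeq windows, none with either motif; windows of *Alx1*, *Alx4*, *Sall3* and *Sall4* were not analysed here.

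Cells with at least 3000 UMIs (unique molecular identifiers, each 1 captured transcript) and at most 10% mitochondrial UMIs were kept, 53085 of 57469 barcodes. Kept cells numbered between 3165 and 11109 per library, with medians of 6788 to 18473 UMIs per cell and totals of 31500092 to 234893903 UMIs. No pair of libraries shared more than 1.08% of the barcodes of the smaller one. *tdTomato* was at 427 to 1341 CPM (UMIs of a gene per 1000000 UMIs of the library) in the sorted libraries and at 3.88 and 4.21 CPM in whole 1 and whole 2, and *Hic1* at 22 to 38 CPM against 0.702 and 0.741. Of the 8 epithelial markers, *Krt14* and *Krt5* were listed at 0 at E11.5 and E12.5, but the summed epithelial level was 3479 CPM in the E16.5 proximal library and 625 CPM in the distal one, so epithelial-like cells were present there. The reagent kit changed from v2 to v3 after the E13.5 library, so kit and stage cannot be told apart between E13.5 and E14.5. The E16.5 segments were counted with different Cell Ranger versions, so version and segment cannot be told apart. Each sorted group was 1 library: for these, values carry exact 95% Poisson intervals that cover counting error only, and stages and segments were compared without a test. The sorted E11.5 library was tested against the whole limb pair alone.

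The genes lie on 5 chromosomes in GRCm38. *Pax1* (chr2:147361925-147393295, plus strand) overlaps *AI646519* on the opposite strand, which the count tables also hold. *Hand2* (chr8:57320983-57324633, plus) has 2 exons and overlaps *Hand2os1* on the opposite strand, which has no entry in the tables. *Pax9* (chr12:56691767-56712822, plus) overlaps *Slc25a21* and *Gm15524*, and *Alx4* (chr2:93642384-93681339, plus) overlaps *Ext2*. *Alx1* (chr10:102998707-103030215, minus) overlaps *Gm17028*, *Sall4* (chr2:168748332-168767943, minus) overlaps *Gm14261*, and *Sall1* (chr8:89027235-89044162, minus) and *Sall3* (chr18:80966376-80986771, minus) overlap no annotated gene. Whether the authors' counting used strand is not given in the sources used here, so reads of a gene and its antisense partner may not be fully separated.

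In the whole E11.5 limb, *Hand2* was the most abundant member and *Pax9* the scarcest. *Hand2* was at 88.6 CPM in whole 1 and 82.9 in whole 2, *Sall3* at 44.2 and 49.1, and *Pax1* at 30.1 and 36.8. *Sall1* followed at 24.3 and 25.5 CPM, *Sall4* at 20 and 17.6, *Alx1* at 7.8 and 9.16, *Alx4* at 6.31 and 5.46, and *Pax9* at 3.02 and 3.43. The order was the same in both libraries. These are 3′ end counts, in which a level does not scale with transcript length, though capture may still differ between genes. The Poisson intervals of neighbours in this order did not overlap in either library; the closest were *Alx1* (7.05 to 8.6 CPM) and *Alx4* (5.65 to 7.04) in whole 1.

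*Hand2* and *Pax1* differed in how their UMIs were spread over cells. After thinning every cell to 3000 UMIs, *Hand2* was detected in 20.3% of whole 1 cells (95% Clopper-Pearson interval 19.2 to 21.4) and 19.7% of whole 2 cells (18.7 to 20.8), and before thinning in 39.8% and 39%. *Pax1* was detected in 4.08% (3.57 to 4.64) and 4.58% (4.05 to 5.15), and in 6.15% and 7.59% before thinning. Thus *Pax1* was carried by few cells at a high level: 186 of the 336 whole 1 cells and 217 of the 431 whole 2 cells with *Pax1* held at least 3 of its UMIs, and up to 34 in 1 cell of whole 1. *Sall3*, of a higher level, was detected in 1477 and 1603 cells, of which 182 and 214 held at least 3. Muscle precursors (myogenic-like cells, led by *Myf5*, *Lbx1* and *Pax3*) served as cells that should lack *Hand2*: 3.18% and 2.39% of them had a *Hand2* UMI after thinning (median depths of 12827 and 11947 UMIs, against 8850 and 8593 over all cells), below the share over all cells.

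**Figure D1:**
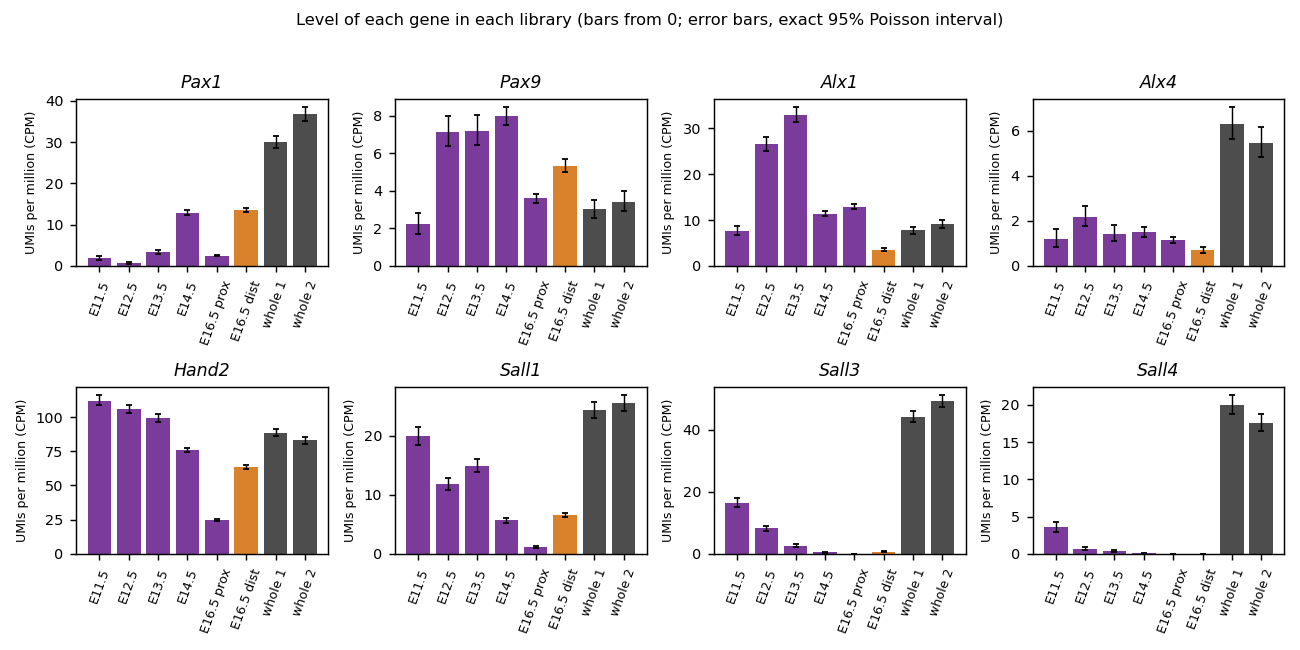
CPM (y axis, linear, from 0, a scale of its own for each gene) of the 8 genes in the 8 libraries (x axis; purple, time course; orange, E16.5 distal; grey, whole limb). Bars are 1 library each and error bars exact 95% Poisson intervals. *Hand2* reaches 112 CPM at E11.5 and 25 CPM at E16.5 proximal, and *Sall4* is at most 0.352 CPM in the last 4 sorted libraries.

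Clusters of the E11.5 libraries, built without the 8 genes and without the limb patterning genes listed with them, placed the members differently. *Pax1* was concentrated in clusters 9 and 3, at 255 and 184 CPM in whole 1 and 243 and 209.5 CPM in whole 2, and was at most 7.57 CPM in each of the other 13 clusters of either library. Cluster 3 was led by *Pax1*, *Irx3* and *Irx5* and was also the highest for *Alx4* (31.7 and 20 CPM). *Hand2* was highest in cluster 0, led by *Dkk1* and the T-box gene *Tbx2* (209 and 177 CPM), and was at 20.4 and 22 CPM in cluster 3.

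The spalt-like genes peaked elsewhere. *Sall1* was highest in cluster 2, led by *Tfap2b* and *Hoxd13*, a gene of the distal autopod (42.4 and 49.5 CPM), where *Sall3* was at 86.1 and 92.2 CPM and *Sall4* at 46.2 and 39.4. In clusters 9 and 3 all 3 were at most 9.43 CPM. *Pax9* was highest in cluster 5 (13.3 and 14.8 CPM), in which it was the first leading gene beside *Epha3* and *Gata6*; there *Sall3* was at 72.7 and 87.6 CPM and *Hand2* at 30.4 and 26.5 CPM. *Pax1* and *Pax9*, paralogues with closely related DNA-binding domains, therefore had their highest levels in different clusters: *Pax9* in cluster 9 was at 0 (which allows up to 1.17, a limit of 3 UMIs) and 0.772 CPM, and *Pax1* in cluster 5 at 2.79 and 7.57 CPM. *Alx1* was at 14.9 to 22.4 CPM in clusters 9, 3, 5 and 13, the last led by *Hand1* and *Dlx5*, and at most 13 CPM in any other cluster.

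**Figure D2:**
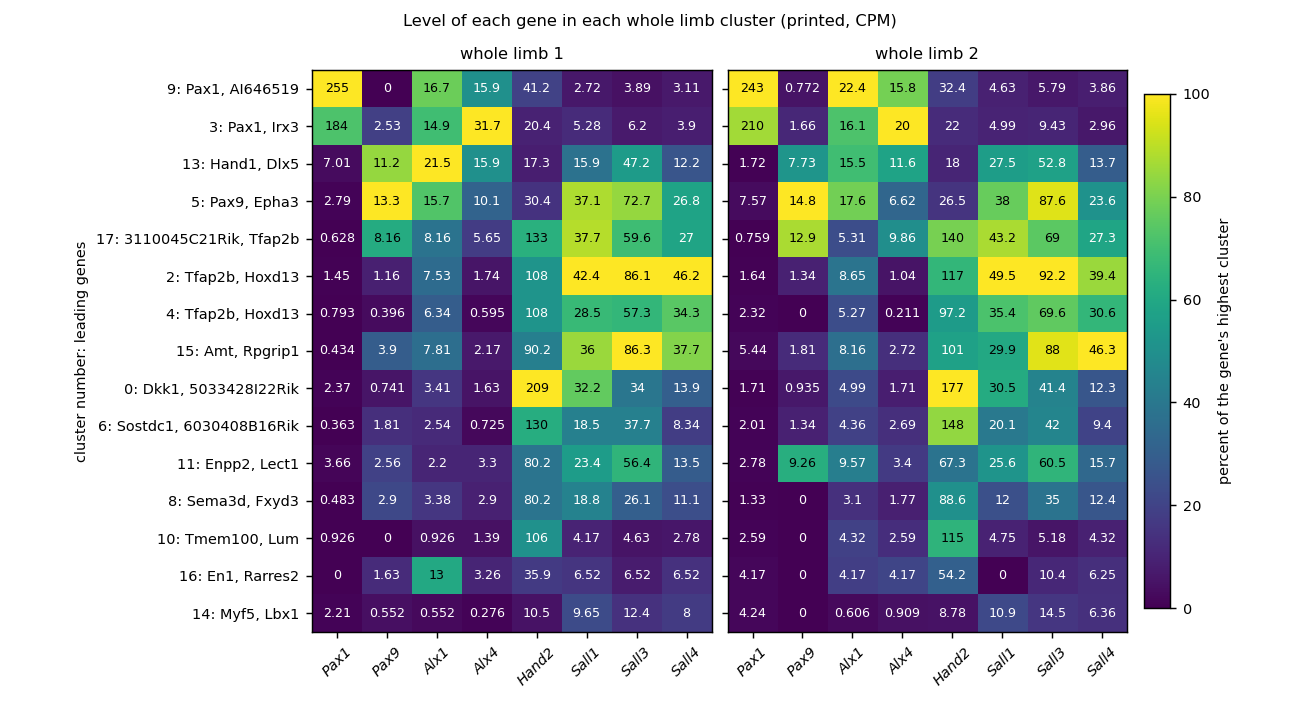
Level of each gene (columns) in the 15 clusters (rows, cluster number and leading genes) with at least 50 cells in each whole limb library; printed values are CPM, and colour is the percent of the gene's highest cluster in that library. *Pax1* fills clusters 9 and 3, *Hand2* peaks at 209 and 177 CPM in cluster 0, and the *Sall* genes peak in clusters 2 and 15.

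By classes named from markers, proximal limb mesenchyme-like cells held *Pax1* at 124 CPM (726 cells of whole 1) and 147 CPM (885 cells of whole 2). Distal limb mesenchyme-like cells of whole 1 were at 1.94 CPM (2189 cells). The proximal class joined cluster 3 (419 and 535 cells), rich in *Pax1*, and cluster 10 (307 and 350 cells), low in it. Cluster 9, the highest for *Pax1*, was unnamed and outside that class. *Alx4* was also highest in the proximal class, at 21.6 and 14.8 CPM. *Sall1*, *Sall3* and *Sall4* were highest in the distal class, at 34.7, 71.4 and 34.1 CPM in whole 1 and 39.8, 80.2 and 30.4 CPM in whole 2, and were lowest in the proximal class, at 4.91, 5.68 and 3.53 CPM and 4.92, 8.16 and 3.37 CPM. *Hand2* was at 83.5 and 80.2 CPM in the distal class and lowest in myogenic-like cells (10.2 and 9.56 CPM).

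Genes with the most similar profile were found over the 15 clusters of whole 1 among 7512 genes, as Pearson's r of log2(CPM + 1), with r in whole 2 beside it. The clusters of a library share its depth and processing, and r is given as a description. For *Pax1* they were its antisense neighbour *AI646519* (r = 0.95 and 0.96), *Hoxb5* (0.91 and 0.92) and *Hoxc5* (0.89 and 0.80). *Sall1* and *Sall3* were the nearest to each other (0.96 and 0.86), with *Zic2* (0.92 and 0.87 for *Sall1*) and *Sall4* (0.92 and 0.93 for *Sall3*). *Sall4* was near to *Pmaip1* (0.96 and 0.94) and the autopod gene *Hoxa13* (0.95 and 0.89). For *Hand2* they included *Tpd52l1* (0.84 and 0.81) and *Rspo3* (0.82 and 0.81), and for *Alx1* they were *Dlx5* (0.87 and 0.73), *Mogat2* (0.86 and 0.80) and *Gli3* (0.84 and 0.81). *Alx4* was nearest to *Nqo1* (0.86 and 0.72). The nearest for *Pax9*, *Smco4*, had r of 0.83 and 0.61, and the next, *Snapc5* and *Atp5g2*, fell to 0.53 and 0.34 in whole 2. Since these genes were picked by r in whole 1, the lower values do not compare the profile of *Pax9* itself between the libraries.

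Co-detection within cells was then examined in the mesenchymal cells of whole 1 (5088) and whole 2 (5333), each thinned to 3000 UMIs, as the number of cells with both genes over the number that independent detection gives. *Hand2* was found together with *Pax1* in 16 cells where 47.5 were expected in whole 1, and in 21 where 53.7 were expected in whole 2. With *Alx4* it was found in 7 cells of 20.4 expected and 6 of 17.3, with *Alx1* in 11 of 24.7 and 14 of 31, and with *Pax9* in 1 of 9.89 and 2 of 9.58. After thinning, *Hand2* was thus at 0.5 times the expected number or less with each of these 4 genes in both libraries (without thinning, with *Pax9* alone), and with none of the 3 *Sall* genes. Among all genes detected in at least 1% of cells, the share at or under 0.5 with *Hand2* was 0.453% in whole 1 and 0.515% in whole 2. Here and below, such shares cover only genes with at least 5 expected cells. *Pax9*, in 46 of 5088 and 46 of 5333 cells, fell short of 1% and was outside this background. That background holds regional and broadly transcribed genes alike.

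*Pax1* stood apart from the *Sall* genes in the same way. *Pax1* and *Sall3* were together in 3 cells of 24.9 expected and 8 of 32.8, *Pax1* and *Sall1* in 4 of 14.2 and 5 of 17, and *Pax1* and *Sall4* in 0 of 12.1 and 3 of 12.8. The share of all genes at or under 0.5 was 3.49% and 3.66% with *Pax1*, 4.25% and 3.85% with *Pax9*, and 3.2% and 2.46% with *Alx1*. It was 2.92% and 2.71% with *Sall1*, 2.51% and 1.94% with *Sall3*, and 2.49% and 2.63% with *Sall4*. *Alx4* and *Sall3* were the remaining pair, at 5 cells of 10.7 expected and 5 of 10.6 (share of genes with *Alx4*, 2.97% and 3.59%), with intervals of the ratio that reach 1.09 and 1.11.

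Other pairs were found together more often. *Pax1* and *Alx1* shared 11 cells of 5 expected (ratio 2.2, 95% interval 1.1 to 3.94) and 24 of 7.21 (3.33, 2.13 to 4.95). *Pax1* and *Alx4* shared 15 cells of 4.13 expected (3.64) and 12 of 4.02 (2.99). These were the 2 of 28 pairs at 2 or more in both libraries. *Pax1* with *Alx4* had fewer than the 5 expected cells required of genes in the background. The share of background genes at 2 or more was 1.65% and 1.25% with *Pax1*, 0.187% and 0.369% with *Alx1* and 0.576% and 0.369% with *Alx4*. With *Pax9* that share was 0.31% and 0.462%, with *Sall1* 0.193% and 0.191%, with *Sall3* 0.158% and 0.099%, with *Sall4* 0.3% and 0.395%, and with *Hand2* 0% in both. *Sall1* and *Sall3* were at 1.65 (1.26 to 2.12) and 2.04 (1.64 to 2.5), *Sall3* and *Sall4* at 1.46 (1.07 to 1.95) and 1.63 (1.23 to 2.12), and *Hand2* and *Sall1* at 1.18 (0.937 to 1.46) and 1.19 (0.953 to 1.47). In all, 8 of 28 pairs were at or under 0.5 in both libraries.

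Most of these ratios were nearer 1 within clusters. When the expected number was summed within clusters, *Pax1* with *Hand2* was at 0.755 (0.432 to 1.23) and 0.987 (0.611 to 1.51), *Alx4* with *Hand2* at 0.694 and 0.655, and *Pax1* with *Alx4* at 1.14 and 0.999. *Pax1* with *Alx1* was at 1.2 (0.6 to 2.15) in whole 1 but at 1.87 (1.2 to 2.79) in whole 2, and *Pax1* with *Sall4* was at 0 of 3.42 expected cells and 3 of 3.83. *Pax9* with *Hand2* alone stayed under 0.5 in both libraries, at 0.181 and 0.329, from 1 and 2 cells, and its intervals reach 1.01 and 1.19. Without thinning the calls were also fewer, 4 pairs under 0.5 and 2 over 2, and 2 of these 6 were other pairs, *Pax1* with *Pax9* and *Alx1* with *Alx4*; *Pax1* with *Hand2* was at 0.57 and 0.484. The calls of *Hand2* with *Alx1* and *Alx4* were lost as well, at 0.799 (0.657 to 0.963) and 0.767 (0.639 to 0.913) for *Alx1* and at 0.524 and 0.439 for *Alx4*. With at least 2 UMIs of each gene required, *Pax1* with *Hand2* was at 5 cells of 47.9 expected and 10 of 51.9. Counted as states, 21% of whole 1 and 20.3% of whole 2 cells had *Hand2* with none of *Pax1*, *Pax9* and *Alx4*, 6.29% and 6.47% had one of those without *Hand2*, and 0.472% and 0.525% (24 and 28 cells) had both, 0.324 and 0.36 times the expected number.

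**Figure D3:**
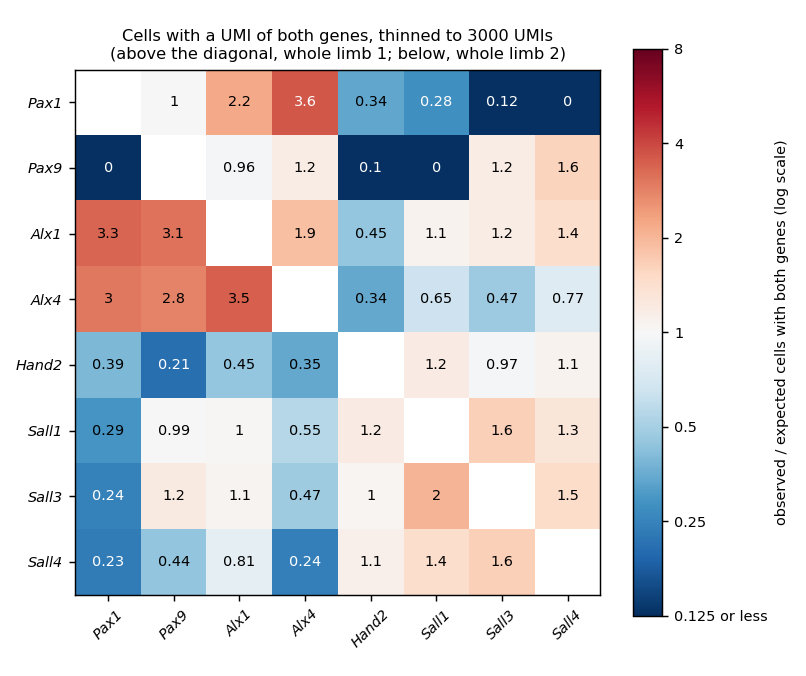
Observed over expected number of cells with a UMI of both genes, for every pair of the 8 genes in mesenchymal cells thinned to 3000 UMIs; above the diagonal is whole 1, below it whole 2, and colour is on a log scale. The *Hand2* row and column are blue with *Pax1*, *Pax9*, *Alx1* and *Alx4* and pale with the *Sall* genes, where ratios lie between 0.974 and 1.19.

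Listed pathway genes placed the members further. *Hand2* was together with *Shh* in 17 cells of 7.96 expected (2.14) and 18 of 9.17 (1.96), and with *Hoxd12* at 1.62 and 1.57. With *Irx3* and *Irx5*, homeobox genes of the anterior and proximal limb, it was at 0.396 and 0.242, and at 0.298 and 0.428. *Pax1* showed the reverse: 5.02 and 4.31 with *Irx3*, 5.53 and 4.09 with *Irx5*, and 0.113 and 0.267 with *Hoxd13*. Of the 39 listed genes with at least 5 expected cells in both libraries, *Pax1* was under 0.5 with 15 and over 2 with 3, the last being *Tbx2* (4 and 2.94). *Pax1* and *Shh* shared 0 cells in both libraries, of 1.61 and 2.13 expected, so that pair was not informative at this depth. *Sall3* was at 2.02 and 2.28 with *Epha3* and at 0.189 and 0.216 with *Irx3*, and *Sall4* at 2.01 and 2.16 with the Notch ligand gene *Jag1*.

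The sorted E11.5 library was compared with both whole limb libraries, over mesenchymal cells, to ask how *Hic1*-lineage cells differ from the limb bud around them. *Pax1* was at 1.88 CPM in sorted cells, 32.8 in whole 1 and 39.7 in whole 2. *Alx4* was at 1.21, 6.9 and 5.87 CPM, *Sall3* at 16.5, 47.4 and 52.4, and *Sall4* at 3.45, 21.1 and 18.6. For these 4 the sorted library lay far below both whole limb libraries, which were close to each other. *Sall1* was at 20, 25.7 and 26.9 CPM, *Pax9* at 2.24, 3.28 and 3.71, *Alx1* at 7.7, 8.46 and 9.92, and *Hand2* at 113, 96.2 and 89.3.

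Of the 8 genes, 7 fell (were lower) in sorted cells by edgeR's quasi-likelihood test at an adjusted p of 0.05, and *Hand2* did not pass. The background was high: 53.4% of all 15061 genes passed, 26.6% lower and 26.8% higher, with a median log2 difference of 0.01. The test had 1 residual degree of freedom and an infinite prior one, so that its p-values rest on a spread pooled over all genes and not on each gene's own. It assumes that the single sorted library varies as the whole limb pair does, and nothing says that whole 1 and whole 2 came from separate litters, so p-values measure the spread between these libraries only. A fall of at least 2-fold was less common among all genes, 5.29%, and was met by *Pax1* (log2 −4.45 ± 0.18 SE, adjusted p = 4.84e-124), *Sall4* (−2.70 ± 0.17, 4.05e-52), *Alx4* (−2.57 ± 0.24, 7.82e-26) and *Sall3* (−1.78 ± 0.13, 5.9e-42). The falls of *Pax9* (−0.82 ± 0.23, 0.000904), *Sall1* (−0.57 ± 0.13, 4.6e-05) and *Alx1* (−0.44 ± 0.16, 0.015) were smaller. *Hand2* was at 0.11 ± 0.09 (adjusted p = 0.347).

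The smaller differences depended on the scaling. With library totals in place of TMM factors the median of all genes moved to 0.19 and the split of calls to 5370 higher and 2446 lower (4042 and 4003 with TMM), and *Hand2* then passed as higher (0.29 ± 0.10, adjusted p = 0.0129). *Alx1* no longer passed under that scaling (−0.26 ± 0.16, 0.194), and adjusted p for *Alx1* ranged from 0.0134 to 0.194 over the alternatives. *Hand2* also passed with all cells included (0.0368). *Pax9* no longer passed with DESeq2 (0.0977), without the filter on low counts (0.0574) or in thinned counts (−0.26 ± 0.34, 0.567), nor *Sall1* in thinned counts (−0.27 ± 0.15, 0.135). *Pax1*, *Alx4*, *Sall3* and *Sall4* were at least 2-fold lower under each of the 10 alternatives, including without either whole limb library. The size for *Pax1* was larger in thinned counts, −5.72 ± 0.28.

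**Figure D4:**
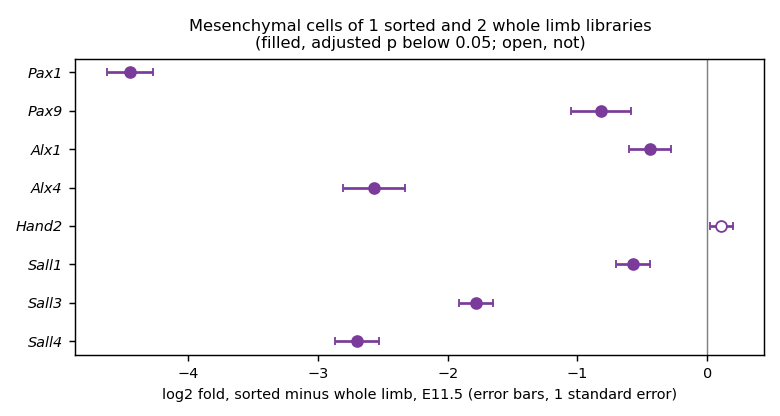
Log2 fold of sorted over whole limb at E11.5 (x axis; points, edgeR estimate; error bars, 1 standard error) for the 8 genes, over 1 sorted and 2 whole limb libraries. *Pax1* lies farthest left at −4.45, and *Hand2*, the open point, at 0.11.

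A lower sum can mean fewer positive cells or less RNA in each, which summed counts cannot tell apart. After thinning, *Pax1* was detected in 3 of 3165 sorted cells (0.0948%, 0.0196 to 0.277), *Sall4* in 1.23% (0.878 to 1.68) against 5.34% and 4.8% of whole limb cells, and *Sall3* in 4.58% (3.88 to 5.37) against 10.7% and 12.1%. *Hand2* was detected in 26.4% (24.9 to 28) against 20.3% and 19.7%. The 59 *Pax1* UMIs of the sorted library came from 10 cells, of which 4 held 52 and 1 held 28. A small set of 77 proximal limb mesenchyme-like sorted cells had *Pax1* at 50.9 CPM and *Alx4* at 8.48 CPM, the highest class for both in that library, and *Hand2* at 28.3 CPM, its lowest. Few cells carried these levels, since the 54 *Pax1* UMIs of the class came from 5 of its 77 cells and the 9 *Alx4* UMIs from 6.

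Regional marker lists differed between sorted and whole limb cells in both directions. The 8 distal limb mesenchyme markers summed to 180.3 CPM in sorted cells and 1284 and 1179 CPM in whole limb, and the 8 proximal markers to 996 CPM against 591 and 620.2; all 16 were detected in each of the 3 libraries. The part of this difference in position in the members' values was not tested. Of 16 SHH pathway and posterior genes, 14 fell and 0 rose (median log2 −1.40), among them *Shh* itself (0.128, 3.51 and 3.6 CPM; −4.94 ± 0.42) and *Hoxd13* (7.6, 133 and 114 CPM; −4.20 ± 0.13). The hedgehog targets *Gli1* (0.20 ± 0.15, adjusted p = 0.238) and *Hhip* (−0.01 ± 0.21, 0.978) did not pass. Of 13 anterior genes and genes of the hedgehog repressor arm, 10 fell and 1, *Tbx5*, rose (median −1.07): *Lhx9*, which is also a distal marker, was at 17.9, 225 and 228 CPM, and *Irx3* at 8.37, 34.9 and 37.8. Both the posterior and the anterior list thus stood below the median of all genes, 0.01.

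The other sclerotome genes went the other way. Of 12 listed genes, 6 had enough counts to test, and these 6 rose, with a median log2 of 1.37: *Meox1*, a somite homeobox gene, was at 50.6 CPM in sorted cells against 7.56 and 7.93, and *Meox2* at 234 against 58.3 and 54.8. *Pax1* and *Pax9*, the sclerotome genes among the members, were lower than in whole limb. Of the 12 genes of the *Sall* family and distal outgrowth, 6 rose and 2 fell. The FGF feedback inhibitor genes went both ways: *Spry2* was at 157 CPM against 41.9 and 33.2 and *Spry1* at 43.2 against 15.4 and 16.5. *Spry4* was lower, at 15.7 CPM against 24.5 and 25.5. *Fgf10* also fell, at 7.44 CPM against 15.9 and 15.4, and *Sall2* did not pass (0.20 ± 0.14, adjusted p = 0.221).

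Along the sorted time course, the *Sall* genes and *Hand2* were lower in the proximal E16.5 library than at E11.5, and the other members moved up and down between stages. *Hand2* was at 112, 106, 99.5 and 75.7 CPM from E11.5 to E14.5 and at 25 CPM at E16.5 proximal. *Sall1* was at 19.9, 11.8, 14.9, 5.7 and 1.22 CPM, *Sall3* at 16.4, 8.25, 2.53, 0.5 and 0.0851, and *Sall4* at 3.62, 0.701, 0.352, 0.0896 and 0.0128. *Hand2* was therefore lower at each later stage, and *Sall3* and *Sall4*, the latter with 3 UMIs at E16.5 proximal, came near the floor.

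Of the 8 genes, 4 were over 2-fold lower at E16.5 proximal than at E11.5 and 0 over 2-fold higher; among 13702 genes at 1 CPM or more, 29.3% were lower and 17.9% higher by this rule. The ratio was 4.5-fold for *Hand2* (interval 4.32 to 4.7), 16.3-fold for *Sall1* (14.2 to 18.9), 193-fold for *Sall3* (124 to 319) and 283-fold for *Sall4* (94.5 to 1394). Limb segment and kit differ between these libraries as well as stage. Without epithelial- and chondrocyte-like clusters *Pax9* (2.02-fold) and *Alx1* (2.09-fold) also passed 2-fold, as higher at E16.5. The share of cells with *Hand2* after thinning was 26.4% at E11.5 (24.9 to 28), 18% at E14.5 (17.2 to 18.9) and 7.15% in the proximal E16.5 library (6.68 to 7.64), but 16.1% in the distal one (15.4 to 16.9), where its level was 63.5 CPM. Cells with any of the 8 genes made up 36.4% of cells at E11.5, 13.7% of the proximal and 23% of the distal E16.5 library, against 44.7% in each whole limb library.

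*Alx1* and *Pax9* were higher from E12.5. *Alx1* was at 7.65, 26.5, 32.9, 11.4 and 12.9 CPM and *Pax9* at 2.22, 7.15, 7.2, 7.97 and 3.61. From E11.5 to E12.5, with the same kit, *Alx1* was 3.47-fold (3.02 to 4) and *Pax9* 3.22-fold higher (2.48 to 4.23), where 5.1% of genes were over 2-fold higher and 2.63% lower. The 2 members over 2-fold lower were *Sall4*, from 3.62 to 0.701 CPM, and *Pax1*, 2.76-fold (1.75 to 4.44) but from 59 and 30 UMIs. After thinning, *Pax1* did not reach the 1 CPM required for this comparison. *Alx4* stayed between 1.14 and 2.17 CPM at the 5 stages. From E12.5 to E13.5 *Pax1* was 4.94-fold higher and *Sall3* 3.26-fold lower (background, 5.11% higher and 2.49% lower).

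From E13.5 to E14.5, where the kit also changed, *Pax1* went from 3.35 to 12.9 CPM (3.85-fold, 3.26 to 4.57), and *Alx1*, *Sall1* and *Sall3* were 2.9-, 2.62- and 5.07-fold lower (background, 6.9% higher and 8.33% lower). From E14.5 to E16.5 proximal *Pax1*, *Pax9*, *Hand2* and *Sall1* were 5.11-, 2.21-, 3.03- and 4.68-fold lower (9.39% and 10.5%). At equal depth, 0.604% of E13.5 cells had *Pax1* (0.426 to 0.832), 2.91% of E14.5 cells (2.56 to 3.29) and 0.729% of E16.5 proximal cells (0.579 to 0.905). Without epithelial-like clusters *Pax9* was no longer past 2-fold in the last step.

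Within stages the members were not all highest in the same clusters or classes. *Alx1* at E12.5 and E13.5 was highest in cluster 12 of the time course, led by *Alx1* and *Gatm*, at 171 CPM (136 to 211; 50 cells) and 138 CPM (130 to 147; 933 cells), where *Hand2* at E13.5 had its lowest level, 47.7 CPM. *Hand2* was highest in cluster 22, led by *Fam19a1*, *Nxnl2* and the T-box gene *Tbx3*, at 247 and 196 CPM. At E13.5 *Sall1* reached 48.4 CPM and *Sall3* 8.84 CPM in fibrogenic progenitor-like cells with *Ptprt* and *Pthlh* among their leading genes (781 cells), in which *Hand2* was at 187 CPM and *Pax9* at 0 (up to 0.553 by the limit of 3 UMIs). *Pax9* was highest in early mesenchymal progenitor-like cluster 8 at E12.5 (22.6 CPM), in a cluster led by *Stmn2* at E13.5 (19.6 CPM) and in one led by *Hoxa13* at E14.5 (27.9 CPM). At E14.5 dermal fibroblast-like cells carried *Pax1* at 64.3 CPM (1214 cells), against 12.9 CPM over the library, while *Sall1* in their main cluster was at 1.19 CPM and *Sall3* at 0 (up to 0.137).

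In the sorted libraries, pairs of *Hand2* with *Alx1*, *Pax9*, *Pax1* or *Alx4* were under 0.5 times the expected number in some libraries and not in others. At E11.5 none of the 6 member pairs with at least 5 expected cells was at or under 0.5: *Hand2* was together with *Alx1* in 11 cells of 14.9 expected (0.74, 0.37 to 1.32) and with *Pax9* in 4 of 6.9 (0.58, 0.158 to 1.48). At E12.5, 4 of 6 pairs were. *Hand2* was together with *Alx1* in 19 cells of 47.4 expected, with *Pax9* in 7 of 21.8 and with *Alx4* in 1 of 5.9 (0.169, 0.00429 to 0.944). The other E12.5 pair was *Alx1* with *Sall1*, in 1 cell of 7.76 expected. Pairs without *Hand2* were also under 0.5 at E14.5, *Pax1* with *Alx1* (1 of 5.09, 0.197, 0.00498 to 1.1), and in the distal E16.5 library, *Pax1* with *Pax9* (0 of 5.36). The share of all genes at or under 0.5 was 3.15% with *Alx1* and 3.58% with *Sall1* at E12.5. At E14.5 it was 5.74% with *Pax1* and 3.97% with *Alx1*. In the distal E16.5 library it was 6.22% with *Pax1* and 3.48% with *Pax9*. E13.5 cells with *Hand2* and *Alx1* numbered 42 of 69.2 expected (0.607, and 0.919 within clusters), E14.5 cells 10 of 31.5, and E16.5 proximal cells 6 of 26.7. *Pax9* with *Hand2* was at 0.772 at E13.5 (0.45 to 1.24). Of all genes with enough expected cells beside *Hand2*, 0.272%, 0.429%, 0.183% and 0.158% were at or under 0.5 in the libraries of E11.5 to E14.5 in order of stage, and 0.871% and 0.206% in the proximal and distal E16.5 libraries. For *Hand2* and *Sall1* the interval lay above 1 in 3 of the 6 libraries, with ratios of 1.51 (1.15 to 1.94) at E12.5, 1.91 (1.58 to 2.29) a day later and 1.93 (1.46 to 2.52) at E14.5. It spanned 1 in the other libraries, at 1.23 (0.941 to 1.58) in E11.5 cells, 1.57 (0.511 to 3.67) in proximal E16.5 cells and 0.809 (0.494 to 1.25) in distal ones. *Hand2* and *Pax1* were together in 4 of 8.31 expected E13.5 cells (0.481, 0.131 to 1.23), 28 of 44.5 E14.5 cells (0.63, 0.418 to 0.91) and 3 of 6.12 proximal E16.5 cells (0.49, 0.101 to 1.43), but in 67 of 50.4 distal E16.5 cells (1.33, 1.03 to 1.69). Cells with *Hand2* and any of *Pax1*, *Pax9* and *Alx4* were at 0.646, 0.291, 0.64, 0.65 and 0.383 times the expected number over the time course and at 1.24 (1 to 1.52) in the distal E16.5 library. Whether the distal value differs from the others was not tested.

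At E16.5 the distal library held more *Hand2*, *Pax1* and *Sall1* and less *Alx1* than the proximal one. *Hand2* was at 63.5 CPM distal (62.3 to 64.8) and 25 CPM proximal (24.3 to 25.6), *Pax1* at 13.5 and 2.52, *Sall1* at 6.6 and 1.22, and *Alx1* at 3.53 and 12.9. The ratio was 2.55 (2.47 to 2.63), 5.38 (4.91 to 5.9) and 5.42 (4.75 to 6.2) for the first 3, and *Alx1* was 3.66-fold lower (3.34 to 4.01). Of 6 members at 1 CPM or more, 3 were thus over 2-fold higher and 1 lower, against 7.58% and 6.66% of 13485 genes. *Pax9* was at 5.35 and 3.61 CPM (1.48-fold, 1.35 to 1.63) and *Alx4* at 0.703 and 1.14. *Sall3* was below 1 CPM in both (0.697 and 0.0851), and *Sall4* had 0 UMIs distal, which allows up to 0.0188 CPM by the 3-UMI limit, and 3 proximal.

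**Figure D5:**
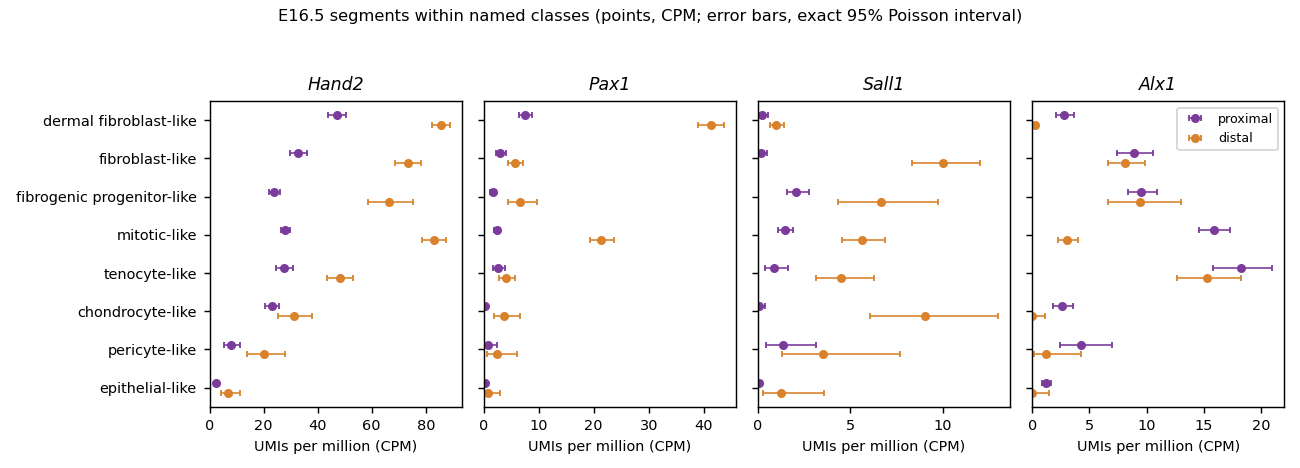
CPM (x axis, linear, from 0) of 4 genes in the 8 named classes with at least 50 cells in both E16.5 libraries (y axis); purple is proximal, orange distal, points are 1 library each and error bars exact 95% Poisson intervals. *Hand2*, *Pax1* and *Sall1* lie to the right in the distal library in every class shown, and *Alx1* does so in 0 of 8.

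Class by class, *Hand2*, *Pax1* and *Sall1* were higher in distal cells in 8 of 8 classes and *Alx1* in 0 of 8. Dermal fibroblast-like cells, the highest class for *Pax1*, were at 41.3 CPM distal (39 to 43.7) and 7.5 proximal (6.32 to 8.84), with *Hand2* at 85.6 and 47.1. Mitotic-like cells had *Alx1* at 3.04 and 15.9 CPM. The distal and proximal intervals were apart in 7 of 8 classes for *Hand2* and *Sall1*, in 5 of 8 for *Pax1* and in 3 of 8 for *Alx1* (chondrocyte-, dermal fibroblast- and mitotic-like), and overlapped in the others, as for *Alx1* in fibrogenic progenitor-like cells, at 9.47 and 9.54 CPM.

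The classes were not made of the same clusters in each segment. Distal dermal fibroblast-like cells were mostly of clusters 7 and 19 and proximal ones of cluster 3; in cluster 3 alone *Pax1* was at 14 CPM distal (10.8 to 17.9) and 7.66 proximal (6.34 to 9.16). Distal fibroblast-like cells were mostly of cluster 15 and proximal ones of cluster 11, in which *Hand2* was at 38.5 (28.7 to 50.5) and 33 CPM (30 to 36.2), with overlapping intervals. Over the 14 clusters with at least 50 cells in both segments, *Hand2* and *Sall1* were higher distally in 13, *Pax1* in 11 and *Alx1* in 3. The intervals were apart in fewer, 10 for *Hand2*, 8 for *Sall1* and 6 for *Pax1*, and in 4, all lower distally, for *Alx1*. Among all 13485 genes 16.5% were higher in at least 13 clusters, 30.3% in at least 11 and 23.8% in at most 3, so such counts were common among all genes. Epithelial-like cells, which should lack *Hand2*, had it at 6.94 CPM distal and 2.39 proximal (68 and 940 cells, median depths of 29687 and 37491 UMIs), and *Sall1* at 1.23 and 0.0557, a background that also differed between the libraries and whose part in the segment difference was not tested.

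Some E16.5 clusters stood out for single members. Cluster 0, led by the muscle fibre genes *Acta1* and *Actc1*, was highest for *Alx1* in both segments, at 43.7 CPM proximal (2004 cells) and 37.1 distal (107 cells). Cluster 27, dermal fibroblast-like and led by *Gal*, *Sox2* and *Foxd1*, was highest for *Alx4*, at 11.5 and 12.4 CPM. Cluster 21, led by *Rit2* and *Ednrb*, was highest for *Hand2*, at 108 and 114 CPM, and for *Sall1*, at 23.8 and 31.8 CPM. For these 3 clusters the proximal and distal intervals overlapped. Cluster 24, led by *Nell2* and *Igfbp2* and with *AI646519* and *Meox1* among its leading genes, was found proximally (226 of 228 cells) and had the highest proximal levels of both *Pax1* (23.4 CPM, 18.6 to 29.2) and *Pax9* (20.2 CPM, 15.7 to 25.6).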

How the data were processed

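The deposited tables hold raw UMI counts per gene and barcode, made by the authors with Cell Ranger from 10x Genomics 3′ libraries on a modified mm10 reference; the file headers name version 3.0.2 for 5 sorted libraries and 6.0.1 for the E16.5 distal one, and none for whole limb, while the study's reporting form names a single other version for its single-cell data as a whole. The use of strand is not given in the sources used here. Barcodes with at least 3000 UMIs (the study's minimum) and at most 10% mitochondrial UMIs (chosen here) were kept. Levels were computed here as CPM over kept cells with exact 95% Poisson intervals, and shares of cells after thinning each cell to 3000 UMIs, with Clopper-Pearson intervals; both cover counting error only, and a count of 0 was limited at 3 UMIs.

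Cells were clustered separately for the E11.5 libraries, the time course and the E16.5 segments (scanpy 1.11.5; 2000 variable genes without the members and listed genes, 50 principal components, 25 neighbours, Leiden resolution 1). A cluster was named "X-like" when at least 3 markers of 1 of 19 classes were raised in it, the others being left unnamed and given by their leading genes. Doublets were not removed: Scrublet's threshold marked 0 to 2.66% of cells, under 0.5% in 7 libraries, so removing the 6% highest scores was added as an alternative after seeing the data.

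Summed counts of mesenchymal cells were tested with edgeR 4.0.16 (quasi-likelihood, TMM factors, filterByExpr) across all genes, with Benjamini-Hochberg adjustment at 0.05, in R 4.3.3; it was tested on simulated data, as were DESeq2 1.42.0 and limma-voom 3.58.1, the alternatives. Other groups were 1 library each and were compared without a test, by a 2-fold rule for genes reaching 1 CPM in either library. Co-detection took observed over expected cells, with calls at 0.5 and 2. All 8 members are named; other genes come from fixed lists or are among the 3 with the most similar profile; a few genes so chosen are not reported here. Members and lists were chosen with earlier results of these data known. Gene models are GENCODE vM21 (GRCm38).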

Additional observations from a re-analysis of the deposited data

How the results depend on the processing

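No paired analysis was possible because each sorted group holds 1 library, so no 2 groups share 2 replicate numbers. No member's log2 difference at E11.5 that was called, and no ratio past 2-fold between stages or segments, changed direction under an alternative run. In the E11.5 comparison, counts thinned to 3000 UMIs called 4 members, 4 of them lower, in place of 7, and DESeq2 and the fit without a filter on low counts called 4888 and 4340 genes in place of 8045; the unfiltered fit also tests more genes, and the cause was otherwise not tested. *Alx1* lost its call under 6 alternatives, *Pax9* under 3 (DESeq2, no filter, thinned) and *Sall1* under 1 (thinned). *Hand2* gained one under library totals and with all cells. Leaving out a whole limb library left 1 against 1 and no test.

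In both whole limb libraries 10 member pairs were called. Without thinning 6 were, 4 of them among those 10, and with expectation within clusters 1 was. With at least 2 UMIs of each gene required, 10 were at or under 0.5 and 4 at 2 or more. Some of these rest on few expected cells, as *Pax9* with *Alx4* (0.16 in whole 1). Ratios of single pairs crossed 1: within clusters *Pax1* with *Sall1* went from 0.281 to 1.1 in whole 1 and *Pax1* with *Alx4* from 2.99 to 0.999 in whole 2. With 1 library in place of both, 11 to 17 pairs were called, 17 without whole limb replicate 1, since a single library no longer needs the other to meet the limit. Members past 2-fold between E11.5 and E16.5 proximal numbered 3 to 6 in place of 4, the 6 without epithelial- and chondrocyte-like clusters, an alternative added after seeing the data, and those between segments 4 or 5. Depth limits *Pax9*, *Alx4* and late *Sall3* and *Sall4*, whose pairs rest on few cells, and single libraries limit every statement on stage and segment.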
